A study of Mus musculus with 42 samples.

Results

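The genes described here are 10 transcripts of brain endothelium, the cells that line the blood vessels: Apold1, Ctla2a, Cldn5, Pecam1, Ly6c1, Slco1a4, Abcb1a, Flt1, Kdr and Mfsd2a. They were matched by gene symbol among the 35275 genes of the deposited count tables, and all 10 were found and passed the filter on low counts in every comparison. RNA was sequenced from the whole cerebellum of male C57BL/6 mice in 6 groups of 5 libraries. From the age of 3 months the mice spent 3 months with free access to food (AL), with a daily fast of 16 h (IF16) or with fasts of 24 h on alternate days (EOD), and were collected at 6 months. Mice of 3 further groups, called refed AL, refed IF16 and refed EOD here for the letter R that the labels add, went through the same 3 regimens, then ate freely for 2 months and were collected at 8 months. The labels name no transgene or drug in any group, the hour of collection is not given in the labels, and the labels do not tie a library of one group to a library of another. The p-values below for differences between groups judge them against the spread between these libraries, taken as unpaired.

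Brain endothelial cells are sealed to each other by tight junctions, take up nutrients through dedicated carriers and pump many drugs back into the blood, and together these properties form the blood-brain barrier. Their growth and survival depend on vascular endothelial growth factor (VEGF) from neighbouring cells, and their barrier properties on Wnt and norrin signals. Among the 10 genes, Apold1 encodes an apolipoprotein L domain protein that endothelial cells induce within a short time after stimulation, and Ctla2a encodes an inhibitor of cathepsin proteases. Mfsd2a carries lysophospholipids with docosahexaenoic acid into the brain and restrains vesicle traffic across the endothelium. Cldn5 is the main claudin of the tight junctions, and Pecam1 and Ly6c1 are proteins of the cell surface. Slco1a4 is an organic anion carrier, Abcb1a is the efflux pump P-glycoprotein, and Flt1 and Kdr are the 2 main VEGF receptors of endothelium.

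The labelled tissue and cell type were checked against marker genes. The summed level of 6 granule cell markers was 3938 to 4563 CPM (read counts scaled to a common library size) over the 30 libraries, and that of 5 Purkinje cell markers 5225 to 7311 CPM. The 24 other endothelial markers, Cdh5 and Tie1 among them, were present in all groups, with sums of 566 to 669 CPM. Choroid plexus markers varied most, from 33.2 to 4304 CPM, and red blood cell markers ran from 11.02 to 116 CPM. In bulk tissue, fewer endothelial cells and less RNA per endothelial cell cannot be told apart. Library totals were 26799825 to 36167435 counts. In 4 libraries at the end of the regimens the slope of expression on gene length stood apart from the others, low in AL replicates 4 and 5 and IF16 replicate 1 and high in EOD replicate 4, and results are also given without them where that changes a call.

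Promoter windows of the RefSeq annotation (build GRCm38.p6) matched 9 of the 10 genes, Pecam1 being the gene without a match. The 250 bases before the start site are shown for Apold1 and Ctla2a, which passed a test below, and for Mfsd2a and Cldn5, whose EOD and AL libraries did not overlap. Each runs 5′ to 3′ on the strand of the gene, and capitals mark matches to 7 short motifs that were searched on both strands. Apold1 lies at chr6:134981751-134982000 on the plus strand, Ctla2a at chr13:60936626-60936875 on the minus strand, Mfsd2a at chr4:122961189-122961438 on the minus strand and Cldn5 at chr16:18776597-18776846 on the plus strand.
Apold1: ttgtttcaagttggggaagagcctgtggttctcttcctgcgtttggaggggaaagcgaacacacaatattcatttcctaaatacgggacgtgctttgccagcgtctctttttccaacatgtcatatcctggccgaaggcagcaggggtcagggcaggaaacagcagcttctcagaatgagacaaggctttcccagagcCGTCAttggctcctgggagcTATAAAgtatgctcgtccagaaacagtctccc
Ctla2a: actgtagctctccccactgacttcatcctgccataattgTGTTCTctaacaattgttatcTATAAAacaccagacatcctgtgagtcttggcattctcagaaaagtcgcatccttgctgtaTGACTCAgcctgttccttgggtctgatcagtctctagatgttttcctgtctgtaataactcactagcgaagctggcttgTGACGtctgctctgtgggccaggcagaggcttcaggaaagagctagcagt
Mfsd2a: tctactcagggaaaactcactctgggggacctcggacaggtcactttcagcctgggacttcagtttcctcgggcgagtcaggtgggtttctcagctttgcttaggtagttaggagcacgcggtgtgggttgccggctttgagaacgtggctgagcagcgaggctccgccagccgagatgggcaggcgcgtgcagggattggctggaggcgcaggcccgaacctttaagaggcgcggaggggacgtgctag
Cldn5: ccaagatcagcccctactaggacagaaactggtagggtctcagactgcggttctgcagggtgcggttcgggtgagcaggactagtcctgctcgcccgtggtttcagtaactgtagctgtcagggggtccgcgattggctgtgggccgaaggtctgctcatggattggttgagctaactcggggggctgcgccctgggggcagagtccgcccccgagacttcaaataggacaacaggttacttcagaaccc
In the Apold1 sequence the capitals are a cyclic AMP response half-site (TGACG, here on the minus strand) that begins 52 bases before the start and a TATA box core (TATAAA) that begins 32 bases before it. In the Ctla2a sequence they are a glucocorticoid receptor half-site (AGAACA, minus strand) at -211, a TATAAA at -190, an AP-1 site (TGANTCA) at -129 and a TGACG at -50. The Mfsd2a and Cldn5 sequences hold none of the 7 motifs, which also included an ETS core (CCGGAA), an E-box (CACGTG) and the serum response CArG box. Over all 32851 promoter windows, which run from 250 bases before to 50 bases after the start, TGACG was found in 20.8%, AGAACA in 19.0%, TATAAA in 13.6% and TGANTCA in 7.81%. Among the 9 genes with a window TGACG was found in 3, AGAACA in 2, TATAAA in 4 and TGANTCA in 1. One of the AGAACA matches is in the window of Abcb1a, which lies 92986 bases from the start of that gene in the deposited table. These matches describe the letters of the windows and no binding was measured.

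At the end of the regimens Apold1 was the member with the largest change. Its 5 AL libraries held 3.93, 3.04, 3.11, 3.21 and 2.14 CPM, scaled by trimmed mean of M values (TMM) within the table. The IF16 libraries held 4.75, 6.73, 12.2, 9.88 and 9.08 CPM and the EOD libraries 5.93, 7.62, 12.9, 12.3 and 7.49 CPM. Every fasted library lay above every AL library, so neither regimen overlapped the controls. The means were 3.09 ± 0.637 (AL), 8.52 ± 2.87 (IF16) and 9.24 ± 3.12 CPM (EOD; SD, n = 5 each). Apold1 rose in EOD by 1.58 on the log2 scale (SE 0.258, 2.99-fold), with an adjusted p of 0.0357 in edgeR's quasi-likelihood test, where adjusted means Benjamini-Hochberg over all 16577 genes tested. In IF16 the difference was 1.46 (SE 0.258, 2.75-fold) with an adjusted p of 0.0519, just above the threshold of 0.05.
The EOD call was held in 2 of the 10 fits that left out 1 library and was lost without AL replicate 2, 3, 4 or 5 or EOD replicate 2, 3, 4 or 5 (adjusted p 0.0523 to 0.165). It was also lost with the gene length slope as a covariate (0.0527), with the replicate number as a block (0.0552) and without the 4 libraries that stood apart (0.236), while the log2 fold change stayed between 1.32 and 1.70 in all settings.

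**Figure D1:**
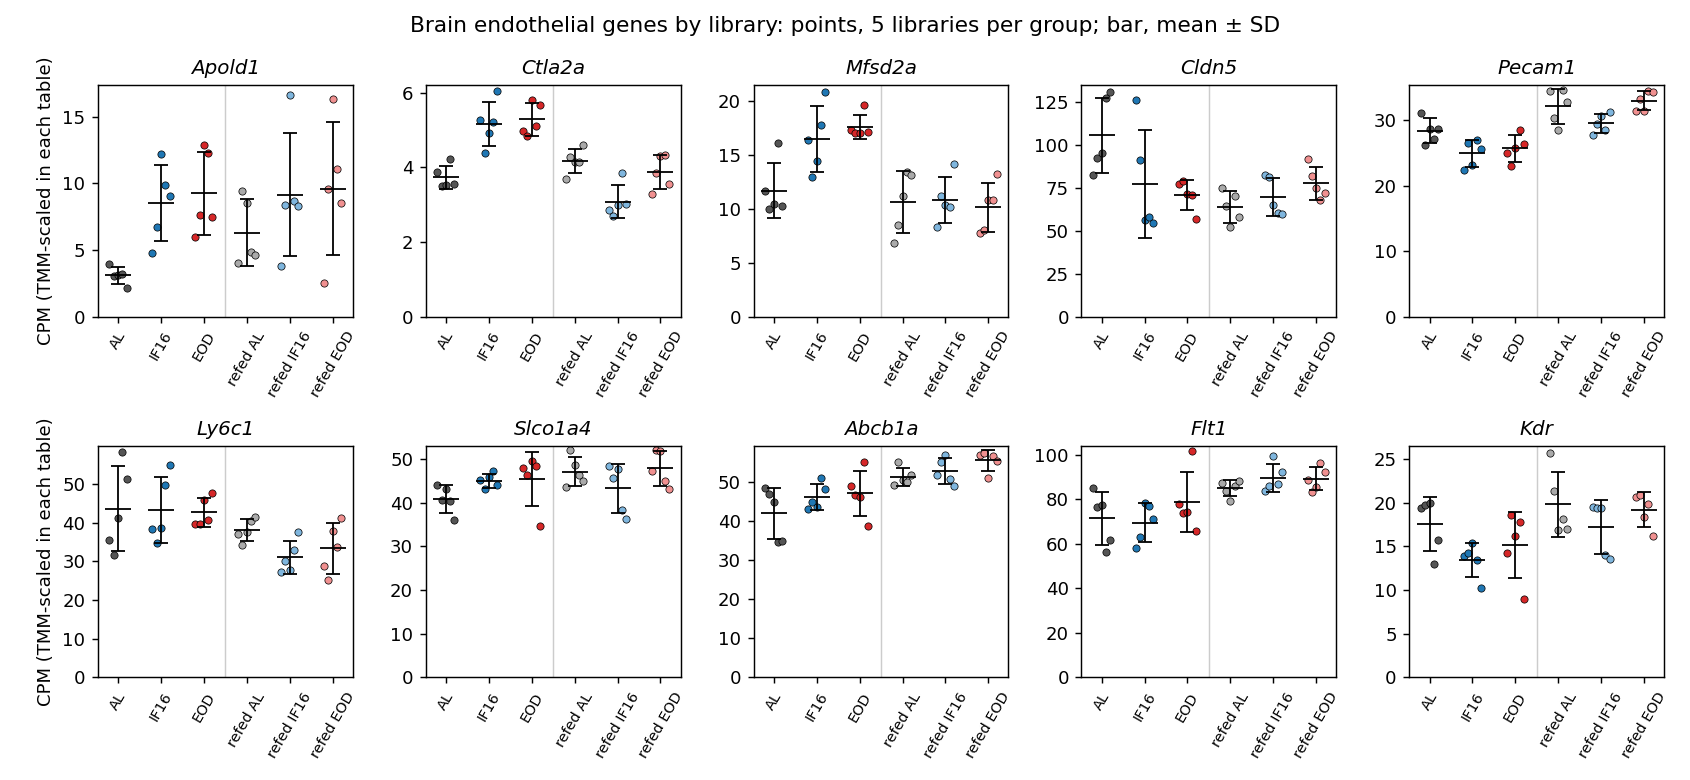
CPM of the 10 genes (vertical axes, from 0) in each of the 6 groups (horizontal axes), with 1 point per library and bars for the mean ± SD of 5 libraries. In Apold1 and Ctla2a all IF16 and EOD points lie above all AL points, and the vertical line separates the sets collected at 6 and at 8 months.

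Ctla2a was also higher in both fasted groups, by a smaller amount and with less scatter. The AL libraries held 3.87, 3.49, 3.54, 4.21 and 3.55 CPM, the IF16 libraries 5.26, 4.38, 4.92, 5.22 and 6.04 CPM and the EOD libraries 4.97, 4.84, 5.81, 5.12 and 5.67 CPM. As with Apold1, no fasted library overlapped the controls. The log2 fold change was 0.47 in IF16 (SE 0.103, adjusted p = 0.153, edgeR) and 0.50 in EOD (SE 0.103, adjusted p = 0.121), so neither passed the threshold. Ctla2a rests on 91 to 203 reads per library, and its close relative Ctla2b, with group means of 0.567 to 0.873 CPM, could share some of them.

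Mfsd2a, the lipid carrier, showed the third difference in the same direction. The AL libraries held 11.7, 10.02, 10.4, 16.1 and 10.3 CPM, the IF16 libraries 16.4, 12.9, 14.5, 17.8 and 20.8 CPM and the EOD libraries 17.4, 17.0, 17.0, 19.6 and 17.2 CPM. EOD lay wholly above AL, whereas IF16 overlapped AL through AL replicate 4. The log2 fold change was 0.59 in EOD (SE 0.138, adjusted p = 0.175, edgeR) and 0.49 in IF16 (SE 0.138, adjusted p = 0.284). Without AL replicate 4 the EOD value was 0.73 with an adjusted p of 0.0393.

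Cldn5, the claudin of the tight junctions, differed in the other direction. Its AL libraries held 82.5, 92.1, 95.03, 127 and 130 CPM and its EOD libraries 76.9, 79.0, 71.2, 70.7 and 56.5 CPM. All EOD values were below all AL values, but the log2 difference of -0.57 (SE 0.209) had an adjusted p of 0.314 in edgeR. The IF16 libraries were split, with 126 and 90.8 CPM in replicates 1 and 2 and 55.9, 57.9 and 54.5 CPM in the others. The 3 libraries with the highest Cldn5 (AL replicates 4 and 5 and IF16 replicate 1) were those in which long genes were lowest. With the gene length slope as a covariate the EOD difference was -0.25, and without the 4 libraries that stood apart it was -0.35.

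Of the 2 VEGF receptors, Kdr was lower in IF16, with libraries of 13.9, 14.2, 15.4, 13.4 and 10.2 CPM against 19.3, 19.8, 20.0, 12.9 and 15.7 CPM in AL. The groups overlapped, and the log2 difference was -0.39 (SE 0.172, adjusted p = 0.493, edgeR). In EOD the Kdr libraries held 14.2, 18.6, 16.2, 17.8 and 9.03 CPM, with a difference of -0.21 (SE 0.172). That value was -0.07 without EOD replicate 5, -0.37 with the gene length slope as a covariate and -0.45 without the 4 libraries that stood apart. Flt1 held 71.5 ± 11.95 (AL), 69.5 ± 8.71 (IF16) and 78.8 ± 13.6 CPM (EOD; SD, n = 5 each), with log2 differences of -0.04 and 0.14 (SE 0.128 each). Neither receptor passed the test in either comparison.

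The remaining 4 genes were not called at the end of the regimens. Pecam1, an adhesion protein at the contacts between endothelial cells, held 28.3 ± 1.90 (AL), 24.9 ± 2.07 (IF16) and 25.7 ± 2.02 CPM (EOD; SD, n = 5 each), and its log2 differences were -0.19 and -0.14 (SE 0.0760 each). In IF16 its 95% interval of -0.35 to -0.025 lay below 0, with an adjusted p of 0.446 in edgeR. Ly6c1 differed by -0.01 and -0.03 (SE 0.155 each), and the 95% interval in EOD, -0.36 to 0.30, leaves room for a change of either sign. Slco1a4 differed by 0.14 and 0.15 (SE 0.0872 and 0.0873), and the pump Abcb1a by 0.14 and 0.17 (SE 0.107 each). For Slco1a4, EOD replicate 5 stood below the rest of its group with 34.6 CPM against 46.4 to 49.6 CPM.

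Counted over the 10 genes, edgeR called 1 in EOD against AL, where 0.0664% of all genes were called, and 0 in IF16 against AL, where 0.0483% were. At an unadjusted p under 0.05 there were 6 of the 10 in IF16, where 9.92% of all genes passed. Of these 3 were higher (4.35% of all genes) and 3, Cldn5, Pecam1 and Kdr, were lower (5.57%). In EOD there were 4, against 14.4% of all genes, of which 3 were higher (7.02%) and 1 lower (7.4%). Groups that did not overlap were seen for 2 genes in IF16, both higher (0.857% of all genes). In EOD they were seen for 3 that were higher (1.36%) and 1 that was lower (1.53%). DESeq2 called Apold1 and Ctla2a in IF16 (adjusted p 2.3e-05 and 0.013), where it called 0.543% of all genes. In EOD it called Apold1, Ctla2a and Mfsd2a (adjusted p 0.00558 for Ctla2a and 0.0129 for Mfsd2a), where it called 0.772%. Both comparisons use the same 5 AL libraries. The median log2 difference over the 10 genes was 0.06 in IF16 and 0.15 in EOD, against -0.01 and -0.02 over all genes. Between EOD and IF16 edgeR and DESeq2 each called 0 of the 10, where they called 0% and 0.00603% of all genes, and 0 of the 10 had an unadjusted p under 0.05 (3.62% of all genes). Those differences ran from -0.12 in Cldn5 to 0.18 in Flt1.

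**Figure D2:**
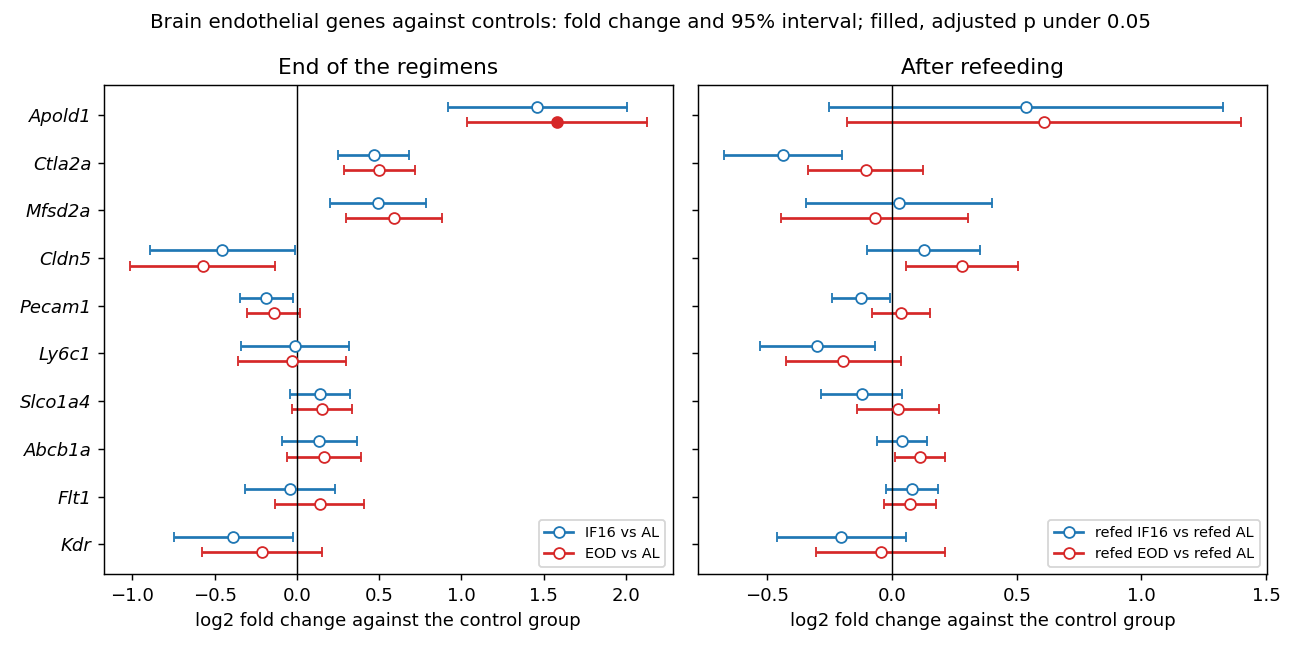
Log2 fold change of each gene against the control group of its set (horizontal axes, which differ in scale between the panels), with bars for the 95% interval. The filled point is Apold1 in EOD, the one called value. In the left panel Apold1, Ctla2a, Mfsd2a, Slco1a4 and Abcb1a lie right of 0 in both regimens. Cldn5, Pecam1, Kdr and, close to 0, Ly6c1 lie left of it.

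After 2 months of refeeding edgeR called 0 of the 10 genes in either comparison with refed AL, and DESeq2 also called 0. Over all genes, edgeR called 0.17% in refed IF16 and 0.0426% in refed EOD, and DESeq2 called 0.614% and 0.407%. At an unadjusted p under 0.05 there were 3 of the 10 in refed IF16 (9.58% of all genes), and all 3, Ctla2a, Pecam1 and Ly6c1, were lower (4.83%). In refed EOD there were 2 (8.5% of all genes), and both, Cldn5 and Abcb1a, were higher (4.51%). The groups overlapped for all 10 genes in both comparisons, where 2.18% and 1.87% of all genes did not overlap.

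Apold1 was not called after refeeding, and its libraries were widely spread in all 3 groups. The refed AL libraries held 4.03, 9.43, 8.55, 4.88 and 4.62 CPM, the refed IF16 libraries 3.82, 8.34, 16.6, 8.65 and 8.30 CPM and the refed EOD libraries 2.51, 9.54, 16.3, 11.1 and 8.49 CPM. Each formerly fasted group ran from below the lowest to above the highest of its controls. The log2 differences were 0.54 in refed IF16 (SE 0.377, adjusted p = 0.672, edgeR) and 0.61 in refed EOD (SE 0.377, adjusted p = 0.692), with 95% intervals of -0.25 to 1.33 and -0.18 to 1.40. The change from the end of the regimen was -0.92 for IF16 (SE 0.509, adjusted p = 0.731, edgeR) and -0.98 for EOD (SE 0.508, adjusted p = 0.494), so a loss of the difference was not shown by test. Scaled together, Apold1 averaged 3.10 CPM in AL and 6.29 CPM in refed AL. Age and the set of libraries differ together between those control groups and cannot be told apart.

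Ctla2a was the one member whose difference from controls was called as unequal in the sets collected at 6 and at 8 months. After refeeding the refed AL libraries held 3.69, 4.27, 4.14, 4.13 and 4.59 CPM, the refed IF16 libraries 2.86, 2.69, 2.99, 3.85 and 3.01 CPM and the refed EOD libraries 3.29, 3.86, 4.30, 4.33 and 3.57 CPM. In refed IF16, 4 of the 5 libraries were below all refed AL libraries, and replicate 4 alone reached into their range. The difference from refed AL was -0.44 in refed IF16 (SE 0.112, adjusted p = 0.167, edgeR) and -0.11 in refed EOD (SE 0.111, adjusted p = 0.85).
For IF16 the difference was thus 0.47 in the first set and -0.44 in the second, which came from different mice. The change between them, tested as an interaction over all 30 libraries, was -0.90 (SE 0.146, adjusted p = 0.00377, edgeR). Scaled together, Ctla2a averaged 3.74 CPM in AL and 4.16 CPM in refed AL, and 5.17 and 3.08 CPM in IF16 and refed IF16. Refeeding, age and the set of libraries differ together between the sets and cannot be told apart. The same holds for every such change given here. Over all genes 0.0474% were called in that test. The call held in all 20 fits that left out 1 library (values -0.998 to -0.84) and under the other 7 settings (-0.93 to -0.90). For EOD the same change was -0.61 (SE 0.145, adjusted p = 0.24), where edgeR called 0 of the 10 genes (0.0119% of all genes) and 3 had an unadjusted p under 0.05 (10.3% of all genes). DESeq2 called 1 of the 10 for IF16 (0.16% of all genes) and 0 for EOD (0.0711%).

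After refeeding Mfsd2a differed from its controls by less than its spread. The refed AL libraries held 6.86, 8.55, 11.2, 13.4 and 13.1 CPM. The refed IF16 libraries held 8.35, 11.2, 10.4, 10.1 and 14.2 CPM and the refed EOD libraries 7.77, 8.03, 10.8, 10.8 and 13.3 CPM. In each group replicate 1 was lowest, so this spread follows the replicate number in part, while the test is unpaired. With the replicate number as a block neither difference was called. The means were 10.6 ± 2.88 (refed AL), 10.9 ± 2.13 (refed IF16) and 10.1 ± 2.27 CPM (refed EOD, SD, n = 5 each). The log2 differences were 0.03 and -0.07 (SE 0.178 and 0.179), with 95% intervals of -0.35 to 0.40 and -0.44 to 0.31. The change from the end of the regimen was -0.67 for EOD (SE 0.241, adjusted p = 0.449, edgeR) and -0.47 for IF16 (SE 0.241, adjusted p = 0.715), so a loss of the difference was not shown by test.

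The Cldn5 estimates lay above 0 after refeeding and below 0 at the end of the regimens, and none was called. The refed AL libraries held 74.6, 64.2, 52.0, 70.2 and 57.8 CPM and the refed EOD libraries 91.9, 81.7, 74.7, 67.6 and 71.6 CPM, with overlap. The difference was 0.28 in refed EOD (SE 0.107, adjusted p = 0.457, edgeR) and 0.13 in refed IF16 (SE 0.108, adjusted p = 0.734). The change from the end of the regimen was 0.85 for EOD (SE 0.248, adjusted p = 0.3), and 0.53 with the gene length slope as a covariate. Scaled together, Cldn5 averaged 105 CPM in AL and 63.7 CPM in refed AL. It averaged 71.0 and 77.2 CPM in EOD and refed EOD, and 77.1 and 69.6 CPM in IF16 and refed IF16. The control groups thus differed more than the fasted groups did. Age and the set of libraries differ together between these sets and cannot be told apart.

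Ly6c1 held 38.2 ± 2.85 (refed AL), 31.1 ± 4.24 (refed IF16) and 33.4 ± 6.54 CPM (refed EOD; SD, n = 5 each), and its log2 differences were -0.30 and -0.20 (SE 0.110 each). Pecam1 differed by -0.12 in refed IF16 (SE 0.0558) and by 0.04 in refed EOD (SE 0.0556). It was the only member whose refed EOD libraries (31.4, 33.1, 31.4, 34.4 and 34.3 CPM) lay above all refed IF16 libraries (27.7, 29.3, 30.7, 28.4 and 31.2 CPM), at a log2 difference of 0.16 (SE 0.0559, adjusted p = 0.333, edgeR). Among all genes 0.791% were higher without overlap there. Of the 10 members edgeR and DESeq2 called 0 between refed EOD and refed IF16, where they called 0.0182% and 0.462% of all genes, and 2 (Ctla2a and Pecam1) had an unadjusted p under 0.05, against 9.75% of all genes.
The carrier Slco1a4, the pump Abcb1a and the VEGF receptors differed little after refeeding, and none was called. Abcb1a held 51.4 ± 2.28 (refed AL), 52.8 ± 3.31 (refed IF16) and 55.6 ± 2.62 CPM (refed EOD; SD, n = 5 each), and differed by 0.04 and 0.11 (SE 0.0478 each). Flt1 differed by 0.08 and 0.07 (SE 0.0496 each), Slco1a4 by -0.12 and 0.02 (SE 0.0780 and 0.0778) and Kdr by -0.20 and -0.05 (SE 0.124 and 0.123).

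Levels were compared between genes only per length, on the authors' FPKM scale (fragments scaled by gene length and by the size of the library). In AL the order was Cldn5 with 74.3 ± 13.7, Ly6c1 with 51.5 ± 11.9, Slco1a4 with 10.7 ± 1.01, Flt1 with 10.4 ± 1.95, Abcb1a with 8.43 ± 1.497, Pecam1 with 8.24 ± 0.657, Mfsd2a with 5.43 ± 1.09, Kdr with 2.97 ± 0.582, Ctla2a with 2.72 ± 0.198 and Apold1 with 0.942 ± 0.206 FPKM (SD, n = 5 each). The neighbours Slco1a4 and Flt1, Abcb1a and Pecam1, and Kdr and Ctla2a lay within their SDs of each other. Apold1 was lowest in AL and stood at 2.62 ± 0.912 FPKM in IF16 and 2.79 ± 0.921 in EOD, where Ctla2a had 3.78 ± 0.420 and 3.82 ± 0.333.
The spread between libraries also differed among genes. The coefficient of variation within a group was lowest for Slco1a4 in IF16 (3.54%) and highest for Apold1 in refed EOD (51.8%). Apold1 varied by 20.6% in AL and by 33.7% to 51.8% in the other 5 groups.

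Apart from the groups, the 10 genes did not vary as 1 block. Over the 15 libraries of each set, with group means removed, the 45 pairs of members had a median Pearson r of 0.0968 at the end of the regimens and 0.0491 after refeeding, with values from -0.680 to 0.870 and from -0.788 to 0.764. A permutation test with 100000 resamples gave 8 pairs with adjusted p under 0.05 in the first set and 7 in the second, adjusted over 130 relations that also include the gene length slope and immediate early genes. The test shuffles the 15 values freely although group means were removed from them, so its p-values come out too small. By r 2 pairs passed in both sets, with the same sign. By Spearman's rho 0 pairs passed in both, and 0 did so by r when the mean of each replicate number was removed as well, an alternative chosen after seeing the data.
For the lipid carrier Mfsd2a and the surface protein Ly6c1 r was 0.697 (permutation p = 0.00374, adjusted 0.0341, rho 0.554 with permutation p = 0.0343, adjusted 0.144) at the end of the regimens. After refeeding the same pair had r = 0.764 (permutation p = 0.00097, adjusted 0.018, rho 0.846 with permutation p = 9e-05, adjusted 0.00585). Without the 2 libraries farthest from the median of Ly6c1, r was 0.375 and 0.728, so the relation at the end of the regimens rests in good part on those libraries. With the replicate number removed r was 0.615 (permutation p = 0.015, adjusted 0.0888) and 0.354 (permutation p = 0.194, adjusted 0.377).
For Ly6c1 and the receptor Kdr r was -0.68 at the end of the regimens (permutation p = 0.00446, adjusted 0.0341, rho -0.6 with permutation p = 0.0203, adjusted 0.107). After refeeding it was -0.699 (permutation p = 0.00391, adjusted 0.0341, rho -0.764 with permutation p = 0.00139, adjusted 0.0258). Without the 2 farthest libraries, r was -0.506 and -0.713. With the replicate number removed it was -0.417 (permutation p = 0.12, adjusted 0.283) and -0.116 (permutation p = 0.678, adjusted 0.786), so neither pair passed in either set.

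Flt1 and Abcb1a followed the gene length slope of the library at the end of the regimens. That slope was fitted over all tested genes, these members included. Long genes therefore tend to rise with it and short genes to fall by construction. The share of all genes with such an r was not computed, so the p-values below show nothing particular to these members. For Flt1 r was 0.953 (permutation p = 1e-05, the smallest these resamples can give, adjusted 0.00065; rho 0.946 with the same p) and for Abcb1a 0.824 (permutation p = 0.0002, adjusted 0.0065; rho 0.825 with permutation p = 0.00026). Without the 2 libraries farthest in slope r was 0.943 and 0.815. For Cldn5 r was -0.7 (permutation p = 0.00357, adjusted 0.0341; rho -0.707 with permutation p = 0.00405) and -0.515 without those 2 libraries. The summed gene lengths in the tables are 6895 bases for Flt1, 4997 for Abcb1a and 1414 for Cldn5. For Ctla2a, of 1373 bases, r was -0.226 (permutation p = 0.416, adjusted 0.644). Apold1, of 3284 bases, had r = 0.584 (permutation p = 0.0231, adjusted 0.103). With the replicate number removed its r was 0.697 (permutation p = 0.00351, adjusted 0.0351). After refeeding no member passed this test, with r = 0.513 for Flt1 (permutation p = 0.0509, adjusted 0.195).

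**Figure D3:**
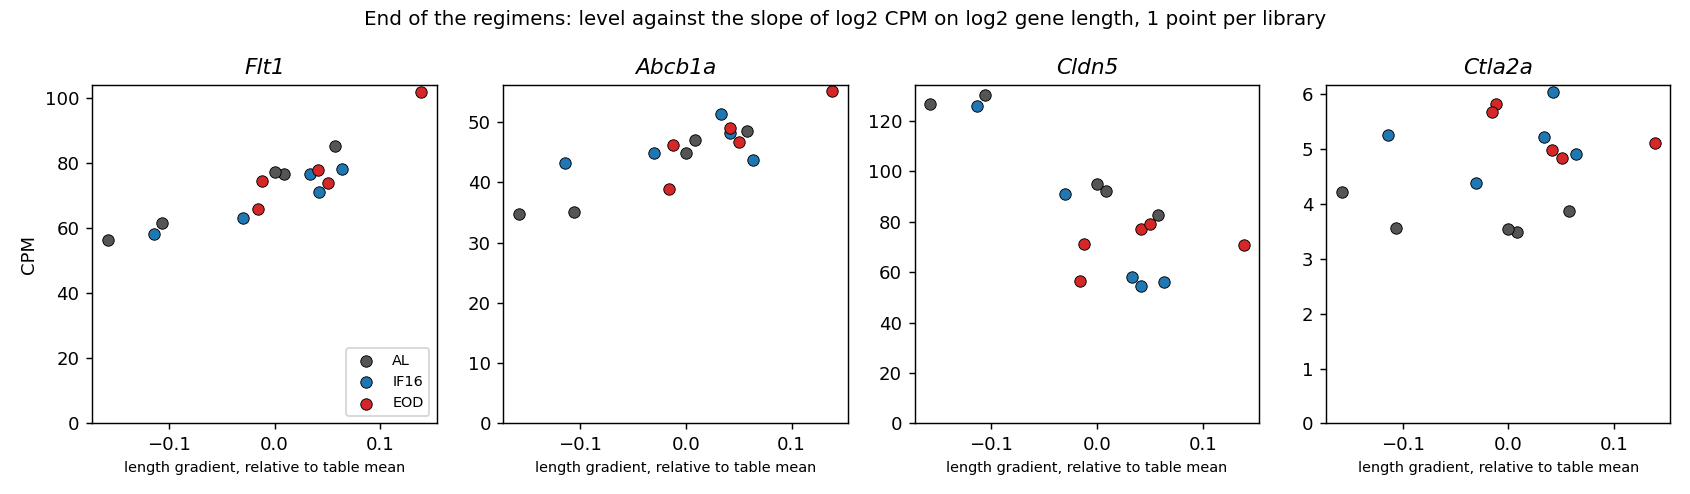
CPM of Flt1, Abcb1a, Cldn5 and Ctla2a (vertical axes, from 0) in the 15 libraries collected at the end of the regimens, against the slope of log2 CPM on log2 gene length of each library relative to the mean of the table. Flt1 and Abcb1a climb with the slope, Cldn5 is highest in the 3 libraries of lowest slope, and Ctla2a separates AL from the fasted libraries along the whole range.

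Genes with a mean of at least 1 CPM were ranked by r. The 10 members, pseudogenes and symbols of Gm plus digits or ending in Rik were left out. Those whose residual pattern was most like that of Apold1 after refeeding were Fosl2 (r = 0.976 over 15 libraries), Fosb (0.963), Nr4a3 (0.956), Fbxo33 (0.951) and Patl1 (0.943). At the end of the regimens they were Cd200 (0.886), Dnah5 (0.873), Ccdc127 (0.871), Tmem135 (0.852) and Fosb (0.851). These are the top 5 of 13061 and 13097 genes and are given as a description. For the mean of the 10 genes they were Stat3 (0.882), Stk38l (0.874), Slc44a1 (0.857), Ap2b1 (0.835) and Ikzf1 (0.812) at the end of the regimens, and Plekha8 (0.844), Rsl24d1 (0.825), Gpr116 (0.817), Sirt1 (0.815) and Pnp (0.802) after refeeding. Of these, Gpr116 (also called Adgrf5) belongs to the list of other endothelial genes. Fosb, a transcription factor gene of the immediate early class, which cells switch on within a short time after stimulation, is on both lists. Apold1, Fosb and the clock gene Per1 are known to vary with recent stimulation or the time of day, and the labels do not give the hour of collection for any group.
After refeeding the 3 libraries with the lowest Fosb, refed EOD replicate 1 (0.611 CPM), refed IF16 replicate 1 (0.776 CPM) and refed AL replicate 1 (1.02 CPM), were also the 3 with the lowest Apold1. The 2 highest in Fosb, refed EOD replicate 3 (9.57 CPM) and refed IF16 replicate 3 (9.45 CPM), were the 2 highest in Apold1. In refed AL both genes were highest in replicate 2, with 7.03 CPM of Fosb and 9.43 CPM of Apold1. The 3 lowest libraries all carry the replicate number 1.
In AL, Fosb ran from 1.29 to 3.30 CPM while Apold1 stayed at or under 3.93 CPM. IF16 and EOD libraries in the same range of Fosb held 4.75 to 9.88 CPM of Apold1. The mean log2 level of 11 immediate early genes had r = 0.889 with Apold1 after refeeding (permutation p = 4e-05, adjusted 0.00173; rho 0.832 with permutation p = 0.00029; 0.777 without the 2 farthest libraries), and 0.789 with the replicate number removed (permutation p = 0.00058, adjusted 0.00942). At the end of the regimens r was 0.294 (permutation p = 0.282, adjusted 0.555, rho 0.264 with permutation p = 0.34), and 0.108 without the 2 farthest libraries. The single genes of that list differed in their r with Apold1. After refeeding r ran from -0.224 (Arc) and 0.0011 (Egr1) to 0.963 (Fosb). At the end of the regimens it ran from -0.597 (Arc), -0.435 (Ier2) and -0.342 (Junb) to 0.851 (Fosb).

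**Figure D4:**
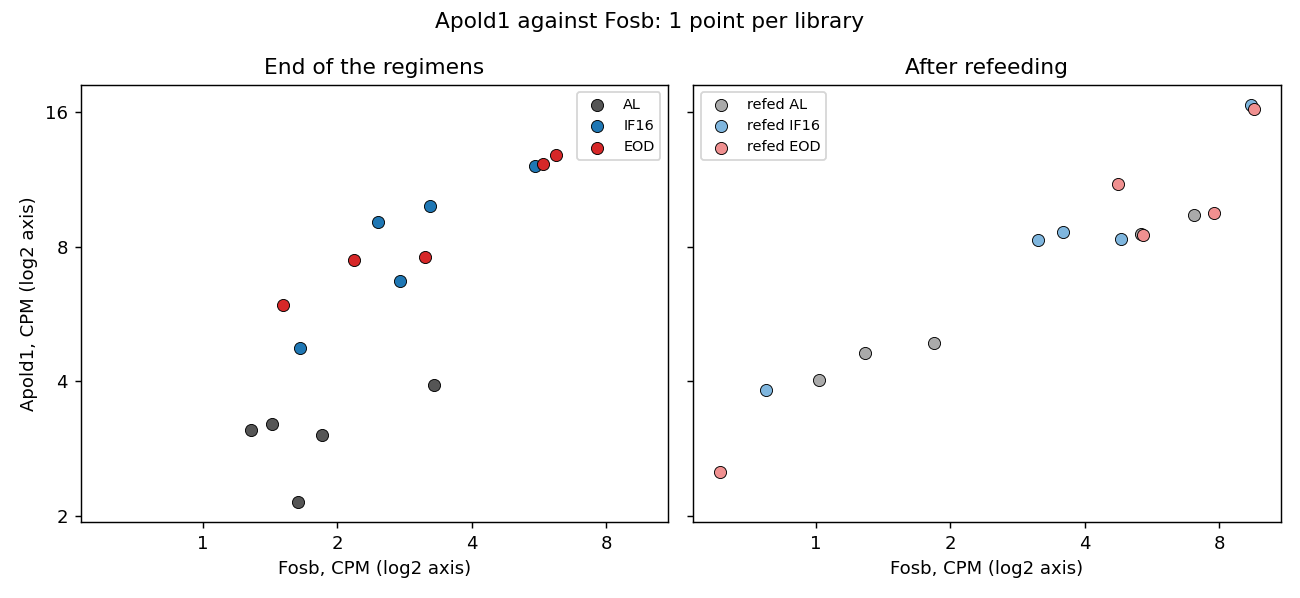
Apold1 against Fosb in CPM (both axes log2) with 1 point per library, for the sets collected at the end of the regimens (left) and after refeeding (right). The AL points lie below the IF16 and EOD points at like Fosb, and after refeeding the libraries of all 3 groups fall along 1 band.

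The wider vascular lists set these values in context. In IF16, EOD, refed IF16 and refed EOD, 9.92%, 14.4%, 9.58% and 8.5% of all genes had an unadjusted p under 0.05. Groups did not overlap for 1.55%, 2.9%, 2.18% and 1.87%, and edgeR called 0.0483%, 0.0664%, 0.17% and 0.0426%. These shares are the background for every list below. Of 24 other endothelial genes edgeR called 0 in each of the 4 comparisons with controls, and 4, 4, 2 and 3 had an unadjusted p under 0.05 in that order. Their median log2 differences were 0.00, -0.04, -0.04 and 0.00. Emcn, a sialomucin of the endothelial surface, had the smallest p at the end of both regimens, with -0.33 (SE 0.0936, adjusted p = 0.284) in IF16 and -0.38 (SE 0.0939, adjusted p = 0.203) in EOD, where its groups did not overlap. Sox18 and Tie1, an endothelial transcription factor and a receptor, were also among those below 0, at -0.45 and -0.27 in EOD.
Of 16 other junction and transporter genes 0 were called in each of the 4 comparisons, with an unadjusted p under 0.05 for 3, 4, 4 and 5. The glutamine carrier Slc38a5 lay below AL without overlap in both regimens, at -0.65 (SE 0.150, adjusted p = 0.178) and -0.67 (SE 0.151, adjusted p = 0.17). The glucose carrier Slc2a1 was at 0.46 in IF16 and 0.55 in EOD (SE 0.194 each, adjusted p 0.471 and 0.313), and in EOD its groups did not overlap. After refeeding the thyroid hormone carrier Slco1c1 had the smallest p of the list in refed EOD (0.25, SE 0.0593, adjusted p = 0.171).

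Of 16 genes of the VEGF, angiopoietin and Notch pathways 0 were called in any of the 4 comparisons, and 2, 4, 1 and 2 had an unadjusted p under 0.05. Their medians were -0.10 in IF16 and 0.00 in EOD, and 14 of the 16 were below 0 in IF16. Of all genes, 48.7%, 46.7%, 48.8% and 50.3% were above 0 in the 4 comparisons in that order. Vegfa, the ligand of both receptors among the 10 genes, had the smallest p of the list in refed EOD, at -0.17 (SE 0.0471, adjusted p = 0.28). Tek, the angiopoietin receptor, was at -0.28 in IF16 (SE 0.0954, adjusted p = 0.368), and its ligand Angpt1 at 0.35 (SE 0.129, adjusted p = 0.419).
Of 17 Wnt and norrin pathway genes 0 were called, with 1, 4, 2 and 1 at an unadjusted p under 0.05. The coreceptor Lrp6 had the smallest p in EOD, at 0.33 (SE 0.102, adjusted p = 0.269), and the norrin receptor Fzd4 was at 0.69 (SE 0.253, adjusted p = 0.314).

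Mural cells, the pericytes and smooth muscle cells that wrap the endothelium, were followed through 14 markers. None was called by edgeR in any of the 4 comparisons, but 11, 12, 14 and 13 of the 14 were below 0 in IF16, EOD, refed IF16 and refed EOD, with 2, 2, 6 and 4 at an unadjusted p under 0.05. The medians were -0.15, -0.14, -0.13 and -0.12. Acta2, the smooth muscle actin, lay below AL without overlap in EOD, at -0.59 (SE 0.152, adjusted p = 0.203), and Cspg4 below refed AL in refed IF16, at -0.41 (SE 0.0865, adjusted p = 0.0729). The summed mural level was 345 to 412 CPM in AL, 308 to 382 in IF16 and 307 to 364 in EOD, so the sums overlapped. The highest of these sums were 412 and 395 CPM in AL replicates 4 and 5 and 382 CPM in IF16 replicate 1. Those libraries also had the lowest gene length slope and the highest Cldn5 of that set. The part of that slope in the relation with Cldn5 was not tested. Over the 15 libraries of a set, with group means removed, the summed mural level moved with Cldn5, with r = 0.72 at the end of the regimens (permutation p = 0.00232, adjusted 0.0232 over 20 relations; rho 0.682 with permutation p = 0.00642, adjusted 0.0428; 0.695 without the 2 farthest libraries). After refeeding r was 0.703 for Cldn5 (permutation p = 0.00466, adjusted 0.0311; rho 0.696 with permutation p = 0.00556, adjusted 0.0428; 0.563 without the 2 farthest libraries), and 0.587 with the replicate number removed (permutation p = 0.0219, adjusted 0.0875). For Kdr r was 0.745 after refeeding (permutation p = 0.00197, adjusted 0.0232; rho 0.707 with permutation p = 0.00458, adjusted 0.0428; 0.755 without the 2 farthest libraries) and -0.2 at the end of the regimens (permutation p = 0.48, adjusted 0.565; rho -0.307 with permutation p = 0.264, adjusted 0.44; -0.477 without the 2 farthest libraries). The other 8 genes did not pass this test in either set, but with the replicate number removed Flt1 (r = 0.825, permutation p = 0.00017, adjusted 0.0017) and Pecam1 (r = 0.742, permutation p = 0.00183, adjusted 0.00915) did after refeeding.

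Stimulus genes were followed in 2 lists. All 15 of the glucocorticoid-induced genes were above 0 in both regimens, with medians of 0.69 in IF16 and 0.82 in EOD, and edgeR called 1 in IF16 (Per1) and 3 in EOD (Angptl4, Per1 and Plin4). The list was put together with earlier results of these data known, so its direction is no independent evidence. Its name is a label, and what raised these genes was not tested. Per1, a clock gene that glucocorticoids also induce, held 110 ± 16.0 CPM in the AL libraries (SD, n = 5). It rose in IF16 to 182 ± 25.8 CPM (log2 0.73, SE 0.123, adjusted p = 0.0451, edgeR) and in EOD to 182 ± 27.9 CPM (0.72, SE 0.123, adjusted p = 0.0436). Angptl4, a secreted inhibitor of lipoprotein lipase, rose by 1.37 in EOD (SE 0.208, adjusted p = 0.0233), and Plin4, a lipid droplet protein, by 2.02 (SE 0.357, adjusted p = 0.0485). After refeeding 0 of the 15 were called in either comparison, with 1 at an unadjusted p under 0.05 in each, and 9 and 5 were above 0.
Of 11 immediate early genes 9 were above 0 in each regimen, with medians of 0.51 and 0.50, and edgeR called 0. Dusp1, a phosphatase gene, was at 0.83 and 0.99 (SE 0.270 each, adjusted p 0.358 and 0.228), and Arc, a gene of neuronal activity, was below 0 at -0.42 and -0.39 (SE 0.112 each). At an unadjusted p under 0.05 there were 7 in IF16, 8 in EOD, 0 in refed IF16 and 2 in refed EOD.

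**Figure D5:**
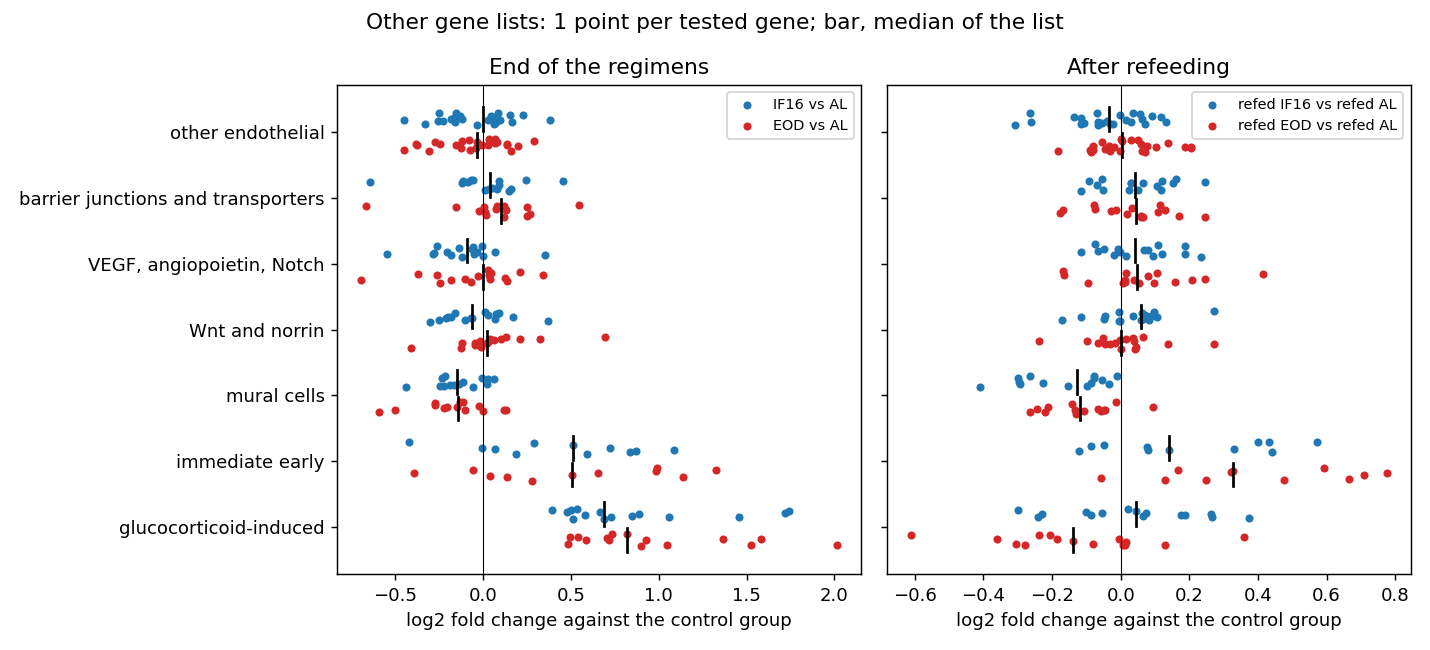
Log2 fold change of every tested gene of 7 lists against the control group of its set (horizontal axes, which differ in scale between the panels), with the median of each list as a bar. The glucocorticoid-induced points all lie right of 0 at the end of the regimens (15 of 15 in each), the endothelial lists are centred near 0, and the mural points lie mostly left of 0.

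Markers of other cells also differed between the groups. Among astrocyte markers edgeR called Aqp4 (0.23, SE 0.0438, adjusted p = 0.0374) and Gja1 (0.31, SE 0.0448, adjusted p = 0.0116) in refed IF16 and Gja1 in refed EOD (0.27, SE 0.0448, adjusted p = 0.0427). Both genes act at the astrocyte endfeet and gap junctions that face the vessels, and no other gene of the cell type lists was called in the 4 comparisons. The 6 tested red blood cell markers were all below 0 after refeeding, 3 in refed IF16 and 6 in refed EOD at an unadjusted p under 0.05, with medians of -0.87 and -1.52 and summed levels of 11.02 to 116 CPM in refed AL, 15.2 to 57.6 in refed IF16 and 16.6 to 27.4 in refed EOD. The 3 markers of fenestrated endothelium, the leaky type outside the barrier, were below 0 in both regimens, with Plvap at -0.36 and -0.31 (SE 0.151 each). Choroid plexus markers, which come with such vessels, had medians of -0.61 in IF16, 0.28 in EOD, -1.11 in refed IF16 and 0.18 in refed EOD. All 11 were below 0 in IF16 and in refed IF16, and edgeR called 0 of them in each of the 4 comparisons, with 0 at an unadjusted p under 0.05. With their level as a covariate Apold1 kept its call in EOD (adjusted p = 0.0214). The part of these other cells in the results was not tested further.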

How the data were processed

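The 30 RNA libraries (6 groups of 5) were used; 12 chromatin samples of the series were not analysed here. The authors deposited read counts per gene, raw and with no normalization, and FPKM, with gene lengths, in 1 table for the regimens and 1 for the refed groups, per the file headers. Per the submitters' processing notes the tools were STAR 2.5, HTSeq 0.6.1 and DESeq2 on build mm10, with their settings not given in the sources used here. Counts were tested with edgeR 4.0.16 (R 4.3.3) by quasi-likelihood fits with TMM scaling and filterByExpr, 1 fit per table over 15 libraries, and 1 fit over all 30 for the interactions. Benjamini-Hochberg adjustment ran over all genes tested (16577, 16444 and 16877) at 0.05, and "called" means past it. Intervals at 95% use edgeR's degrees of freedom. Totals were 26799825 to 36167435 counts. Every count column was matched to its library by name, and groups follow the labels.

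The 10 members and the 17 other gene lists (179 genes, 4 of them matched through older symbols) were chosen with earlier results of these data known. The naming rule took all members, list genes that were called and those of smallest p per comparison, and the genes of highest r; markers of other cell types are given as counts unless called, and some genes of smallest p are left out for length. Ctla2b was named after its values were seen. On simulated counts the EOD against AL fit (16457 genes) recovered 85% of 2-fold and 97% of 3-fold changes, with 8 false calls. The simulation changed 100 genes at each fold and held no gene length slope between libraries. These shares are therefore not the power in the real libraries. The fits were repeated with DESeq2 1.42.0, other scaling, no filter, covariates, a replicate block, without 4 libraries and leaving out each library. Relations between genes used group-centred log2 CPM and permutation tests of 100000 resamples (numpy 2.4.6), with the replicate number also removed as an alternative added after seeing the data; relations with the summed mural level were added then too.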

Additional observations from a re-analysis of the deposited data

Results flagged for a closer look

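Within groups of 5 libraries, a library was set aside for a closer look where its gap to the nearest other library was more than 0.71 of the range of the group. Chance alone gives about 5% of groups, and 4 of 60 were found. Ctla2a in refed IF16 had its highest value, 3.85 CPM, in replicate 4, with the next at 3.01 CPM, and it is the library that made the group overlap refed AL. Slco1a4 in EOD was lowest in replicate 5 with 34.6 CPM. Mfsd2a was highest in replicate 4 of AL, with 16.1 CPM, and in replicate 4 of EOD, with 19.6 CPM. Both of those libraries are among the 4 whose gene length slope stood apart, and the part of that slope was not tested for single values.

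The difference of Ctla2a from its controls was unequal at the end of the IF16 regimen and at the end of refeeding. The change was -0.90 on the log2 scale (edgeR interaction test, adjusted p = 0.00377). Refeeding, age and the set of libraries differ together between these points and cannot be told apart. At the end of the regimen all 5 IF16 libraries lay above all AL libraries, and after refeeding 4 of 5 refed IF16 libraries lay below all refed AL libraries. Without the 4 libraries that stood apart the adjusted p was 0.0139, and over the fits that left out 1 library it was 0.00147 to 0.0165.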

How the results depend on the processing

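Counts of called members depended on the processing in the 2 comparisons with AL and in no other. In IF16 against AL (0 called) DESeq2 called 2, and 1 was called with no filter on low counts, with the gene length slope as a covariate and without IF16 replicate 1, so that leaving out a library gave 0 to 1. In EOD against AL (1 called) DESeq2 called 3, and 0 were called with the gene length slope, without the 4 libraries that stood apart and with the replicate block, with 0 to 1 over the fits that left out a library. DESeq2 called 90 and 128 of all genes in these comparisons against 8 and 11 in edgeR; the cause was not tested. The replicate numbers were not taken as pairs, since the labels do not tie them and not every pair of libraries with the same number had a correlation of deviations over 0.1. At the end of the regimens 3 of 15 did, 5 were above 0 and 2 correlated best with their own number (range -0.53 to 0.32). After refeeding 8 of 15 did, 14 were above 0 and 5 correlated best with their own number (range -0.055 to 0.43). Over the refed libraries the permutation tests of relations treat libraries as independent. In both sets they also shuffle the values freely although group means, and in the alternative replicate means, were removed. Their p-values are therefore too small, most of all with the replicate number removed, and calls near the threshold are uncertain. Removing the replicate number ended the calls of Ly6c1 with Mfsd2a and with Kdr in both sets and of Cldn5 with the mural sum after refeeding. It kept those of Flt1, Abcb1a and Cldn5 with the gene length slope, of Apold1 with immediate early genes after refeeding, of Cldn5 with the mural sum at the end of the regimens and of Kdr with it after refeeding, and Kdr with the mural sum at the end of the regimens, not called, turned to 0.000619. Apold1 with the gene length slope at the end of the regimens passed only with the replicate number removed (r = 0.697, adjusted permutation p 0.0351). With the replicate number as a block Apold1 in EOD against AL had an adjusted p of 0.0552.

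No member that was called changed sign. Differences near 0 did. With the replicate block Ly6c1 turned to 0.0022 in EOD against AL and to 0.0026 in EOD against IF16. With the gene length slope the values were Ly6c1 0.079 in IF16 against AL, Ly6c1 0.11 and Flt1 -0.084 in EOD against AL, Cldn5 0.10, Ly6c1 0.031, Slco1a4 -0.023 and Abcb1a -0.060 in EOD against IF16, Abcb1a -0.013 and Flt1 -0.029 in refed IF16 against refed AL, Cldn5 -0.0097 and Flt1 0.091 in refed EOD against refed IF16, and Abcb1a 0.091 and Flt1 0.15 in the EOD interaction. With the choroid plexus level they were Ly6c1 0.0020 in IF16 against AL, Mfsd2a -0.011 in refed IF16 against refed AL and Flt1 0.0099 in refed EOD against refed IF16. Without the 4 libraries they were Ly6c1 0.30 in IF16 against AL, Ly6c1 0.25, Abcb1a -0.053 and Flt1 -0.13 in EOD against AL, Apold1 -0.16, Cldn5 0.13, Pecam1 -0.034, Slco1a4 -0.013 and Abcb1a -0.058 in EOD against IF16, Abcb1a 0.035 in the IF16 interaction, and Abcb1a 0.16 and Flt1 0.20 in the EOD interaction. The cause was not tested.

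Leaving out each library in turn, these ranges crossed 0: Flt1 -0.12 to 0.034 and Ly6c1 -0.11 to 0.12 in IF16 against AL, Ly6c1 -0.13 to 0.096 in EOD against AL, Mfsd2a -0.097 to 0.12 in refed IF16 against refed AL, and Abcb1a -0.12 to 0.017 and Flt1 -0.15 to 0.034 in the EOD interaction. In EOD against IF16 they were Apold1 -0.033 to 0.28, Cldn5 -0.22 to 0.13, Ctla2a -0.019 to 0.096, Slco1a4 -0.023 to 0.095, Ly6c1 -0.092 to 0.076 and Abcb1a -0.033 to 0.091. In refed EOD against refed AL they were Slco1a4 -0.0090 to 0.059, Kdr -0.096 to 0.065, Pecam1 -0.00033 to 0.065 and Mfsd2a -0.19 to 0.029. In refed EOD against refed IF16 they were Apold1 -0.21 to 0.40, Flt1 -0.035 to 0.035 and Mfsd2a -0.21 to 0.017. Of 1200 alternative values against controls and for the interactions, 1138 kept their direction and side of the threshold, and of 330 between the regimens 296 did. Ctla2a, with 91 to 203 reads per library, and Apold1, with as few as 67, rest on the fewest reads of the 10 genes.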
